A study of Sus scrofa with 4 samples.

Results

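Broad open regions of the porcine fetal fibroblast genome were examined here, defined as stretches of at least 2000 bp in which every library of the series had called open chromatin. They were chosen from the measured peaks themselves: the peaks of all 4 libraries were merged wherever they overlapped by at least 1 bp, and a merged region was kept if it lay on chromosomes 1 to 18, held a peak of each library and reached 2 kb from end to end. This gave 286 regions of 121788 merged regions in all, or 286 of the 72213 regions on these chromosomes that were shared by the 4 libraries. The other 71927 shared regions were narrower than 2 kb, with a median width of 706 bp. Together the broad regions spanned 0.632 Mb.

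The study measured chromatin accessibility by ATAC-seq, an assay in which the transposase Tn5 inserts sequencing adapters into DNA that is not wrapped in nucleosomes, and asked how over-expression of BRG1 bears on open chromatin. The cells were porcine fetal fibroblasts (PFFs) taken from skin, and all were serum-starved. The 2 control libraries (control 1 and control 4) were from cells of genotype WT that carried the vector pTK-642, and the 2 BRG1 libraries (BRG1 1 and BRG1 4) were from BRG1-overexpressed cells that carried pTK-642-BRG1. The labels state neither the promoter that drives BRG1 nor whether the pair of libraries in a group stems from different cultures, so the spread between them may be technical.

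Open chromatin at an active promoter or enhancer is usually a short stretch without nucleosomes, bounded by well-placed ones. Wider open stretches arise where several regulatory elements stand side by side, and they are known at strongly transcribed and at rapidly inducible genes. BRG1 is the product of SMARCA4 and drives the BAF complex, which uses ATP to slide and evict nucleosomes. Immediate early genes are the genes that quiescent fibroblasts switch on first when serum returns.

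The number of peaks per library was between 90851 and 107475. BRG1 4 stood apart from the other libraries, with the fewest peaks and the widest: its median peak width was 541 bp, where control 1 had 403 bp, control 4 had 396 bp and BRG1 1 had 404 bp. It had 160 single peaks of at least 2000 bp on chromosomes 1 to 18, where control 1 had 56, control 4 had 43 and BRG1 1 had 48. Absolute depth is unknown, because the deposited lists hold no read counts. A shared region of any width lay within 1 kb of an end in 69.6% of all protein-coding genes. Of the fibroblast markers, 13 of 14 had such a region, as did 2 of 7 keratinocyte, 2 of 8 endothelial, 4 of 7 skeletal muscle, 4 of 7 immune cell, 2 of 6 melanocyte and glial and 4 of 6 adipocyte markers. A region at a gene end does not measure expression, and what other cells contributed was not tested. The counts of regions, of genes and of list genes, the share at gene ends and the group difference are also given without it.

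The widest broad region lay beside PTGS2, which encodes the inducible cyclooxygenase COX-2 that starts prostaglandin synthesis. It ran over 3068 bp on chromosome 9 from 127846901 to 127849968 (Sscrofa11.1) and stopped 196 bp short of the lower-coordinate end of the gene, which spans 127850164 to 127858866. The peaks of control 1 covered 3051 bp of it, those of control 4 covered 2787 bp, those of BRG1 1 covered 2275 bp and those of BRG1 4 covered 2364 bp. Both controls thus covered more than both BRG1 libraries, and the part that neither BRG1 library called was at the side away from the gene. No other broad region reached 3000 bp.

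FOSB, a partner of JUN proteins in the AP-1 transcription factor, held the region that came next in width. It spanned 2996 bp on chromosome 6 from 51837260 to 51840255, lay wholly inside the gene model (51836780 to 51844531) and took up 38.6% of it. Covered length was 2829 bp in control 1, 2659 bp in control 4, 2748 bp in BRG1 1 and 2962 bp in BRG1 4. The outer edges of the region moved by no more than 19 bp among the libraries, and the differences in covered length came from gaps inside it, since the call consisted of 2 peaks in control 1 and 3 in control 4, with 2 in BRG1 1 and 1 in BRG1 4.

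IER3, an immediate early gene that modulates apoptosis, was covered from end to end. The region of 2813 bp on chromosome 7 (23264327 to 23267139) held the whole 1346-bp gene model (23265560 to 23266905) and reached into the neighbouring model of FLOT1, a scaffold protein of membrane rafts. Covered length was 2773 bp in control 1, 2781 bp in control 4, 2738 bp in BRG1 1 and 2753 bp in BRG1 4, and each library called it as a single peak. The 4 libraries were nearly level here.

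**Figure D1:**
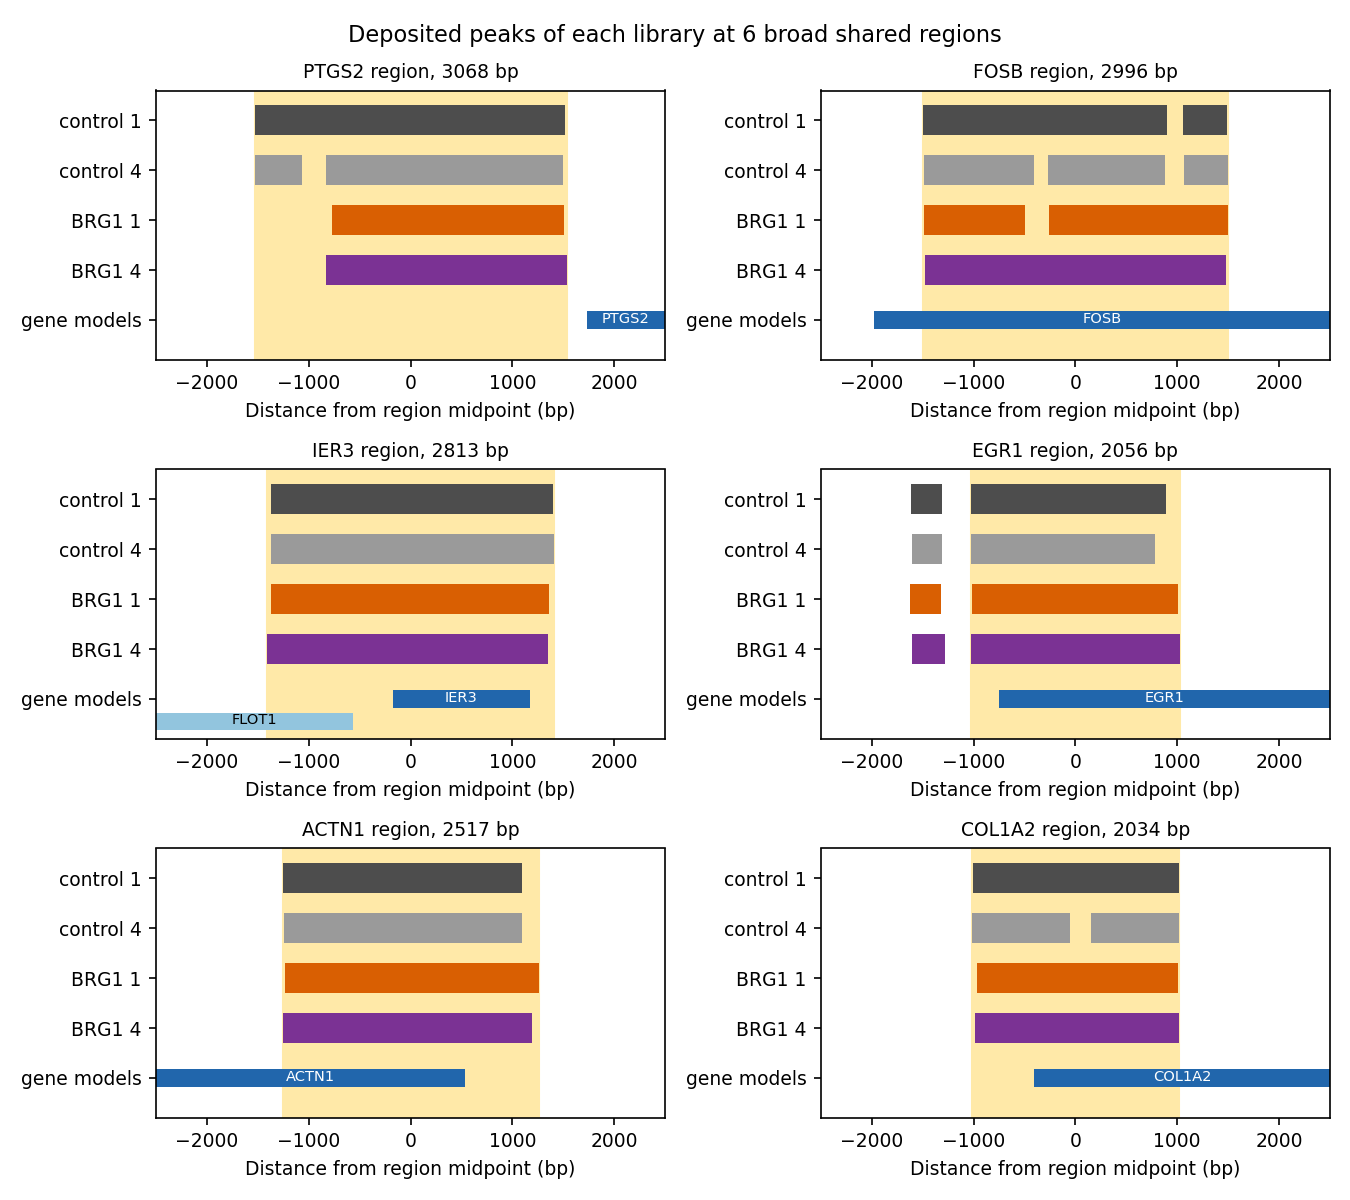
Deposited peaks of the 4 libraries (rows) at 6 broad regions, by distance from the region midpoint in bp. Shading marks the merged region, blue bars mark gene models of the RefSeq table, and bars that meet the panel border continue beyond it. At PTGS2 the BRG1 peaks stop inside the 3068-bp region, whereas at IER3 and ACTN1 every library has 1 peak over nearly the whole region.

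The other regions among the 12 widest were between 2574 and 2809 bp and stood at genes of mixed function. A cluster of 3 protein-coding models with no gene name (LOC100154181, LOC106510170 and LOC100738859) lay at a 2809-bp region on chromosome 4 (99167470 to 99170278). GRAMD2A, a tether between the endoplasmic reticulum and the plasma membrane, held a region of 2763 bp on chromosome 7, from 61044875 to 61047637, with its midpoint 13473 bp inside the model. Neighbouring ends of MTFP1, a mitochondrial fission protein, and SEC14L2, a lipid transfer protein, shared a region of 2760 bp on chromosome 14 (47390949 to 47393708). HTR1B, a serotonin receptor, had 85.3% of its model inside a region of 2758 bp on chromosome 1 (88595752 to 88598509).

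Further down that order came ARHGAP21 beside the model LOC110255603 (2628 bp, chromosome 10, 50538890 to 50541517), and FARP1, a guanine nucleotide exchange factor (2612 bp, chromosome 11, 67144041 to 67146652). SP3, a zinc finger factor that binds GC boxes, had a region of 2604 bp (chromosome 15, 79983864 to 79986467) with its midpoint 4974 bp inside the model. The pairs IPMK and CISD1 (2575 bp, chromosome 14, 92381894 to 92384468) and MRPL12 and HGS (2574 bp, chromosome 12, 1203597 to 1206170) each shared a region. IPMK makes inositol polyphosphates, CISD1 is an iron-sulfur protein of the outer mitochondrial membrane, MRPL12 is a mitochondrial ribosomal protein and HGS sorts ubiquitinated receptors. The region at MTFP1 showed the widest spread of these 12 relative to its length: covered length was 1582 bp in control 1, 1611 bp in control 4, 1712 bp in BRG1 1 and 2759 bp in BRG1 4. The same stretch was called as 4 peaks in each control, 2 in BRG1 1 and 1 in BRG1 4.

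The genes at the broad regions were counted by list. Of all 18722 protein-coding genes on chromosomes 1 to 18, 249 (1.33%) had a broad region within 1 kb of either end of their model. Of the list of AP-1 and immediate early genes, 4 of 21 matched genes (19.0%) had such a region, 15 had a narrower shared region only and 2 had no shared region. These counts describe the lists and were not tested. The covered lengths given per gene are also a description, because the merged peaks of all libraries chose the regions. Besides FOSB and IER3, the list contributed IER5 and EGR1. The count was 3 without BRG1 4, and 2 when 2000 bp had to be covered in every library. At a width of 1500 bp or more it was 6 of 21, when 1873 of all 18722 genes had such a region. Several other lists had higher shares at that width, among them stress response (9 of 20) and inflammatory genes (9 of 24). The order of the lists thus depends on the width cut.

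EGR1, a zinc finger factor induced by serum within minutes, had a region of 2056 bp on chromosome 2 (140440556 to 140442611) that took in the lower-coordinate end and 39.9% of the model (140440829 to 140445302). Covered length was 1912 bp in control 1, 1812 bp in control 4, 2024 bp in BRG1 1 and 2054 bp in BRG1 4, so both BRG1 libraries lay above both controls. IER5, a regulator of heat shock factor activity, had a region of 2091 bp on chromosome 9 (122633324 to 122635414) over 75.3% of its model. There the lengths were 1666 bp in control 1, 1296 bp in control 4, 1757 bp in BRG1 1 and 1937 bp in BRG1 4, again with both BRG1 libraries above both controls. Among the related KLF, SP and zinc finger regulators 1 of 17 genes had a broad region, ZFP36L2, which promotes decay of AU-rich mRNAs. Its 2162-bp region on chromosome 3 (97199050 to 97201211) was covered over 2153 bp in control 1, 1954 bp in control 4, 2117 bp in BRG1 1 and 2136 bp in BRG1 4, and the groups overlapped.

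Of the matrix genes 5 of 30 (16.7%) had a broad region, against the 1.33% of all genes. The count was 3 without BRG1 4, and 0 when 2000 bp had to be covered in every library. At a width of 1500 bp or more it was 8 of 30. COL4A1 and COL4A2, the chains of basement membrane collagen IV, stand side by side in the gene table with overlapping ends, and 1 region of 2242 bp on chromosome 11 (76996356 to 76998597) covered both ends. Covered length there was 1722 bp in control 1, 1736 bp in control 4, 1962 bp in BRG1 1 and 2077 bp in BRG1 4, with both BRG1 libraries above both controls. The other 3 were THBS1 (thrombospondin 1, an activator of latent TGF-beta), COL1A2 (a chain of collagen I) and LAMB1 (a laminin chain). THBS1 had 2136 bp on chromosome 1 (131745305 to 131747440), with 1715 bp covered in control 1, 1330 bp in control 4, 1639 bp in BRG1 1 and 2064 bp in BRG1 4. COL1A2 was the only fibroblast marker of 14 with a broad region, 2034 bp on chromosome 9 (74173872 to 74175905), covered over 2020 bp in control 1, 1831 bp in control 4, 1976 bp in BRG1 1 and 2005 bp in BRG1 4. LAMB1 had 2026 bp, also on chromosome 9 (107745687 to 107747712), with 1773 bp covered in control 1, 1553 bp in control 4, 1592 bp in BRG1 1 and 1986 bp in BRG1 4. At these last 3 genes the ranges of the BRG1 and control libraries overlapped.

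Among genes of the actin cytoskeleton 2 of 24 had a broad region. ACTN1, the actin crosslinker alpha-actinin 1, had 2517 bp on chromosome 7 (92643048 to 92645564), called as 1 peak in each library: 2358 bp in control 1, 2346 bp in control 4, 2492 bp in BRG1 1 and 2454 bp in BRG1 4. TPM2, a tropomyosin, had 2382 bp on chromosome 1 (236408507 to 236410888), covered over 1653 bp in control 1, 1544 bp in control 4, 1436 bp in BRG1 1 and 2066 bp in BRG1 4. At ACTN1 both BRG1 libraries were above both controls, whereas at TPM2 the BRG1 libraries stood on either side of the controls. Without BRG1 4, 1 of the 24 genes had a broad region, and the count without control 1 was also 1.

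From the lists of signalling genes 4 had a broad region. In the inflammatory list 2 of 24 genes had a broad region, PTGS2 and NFKB2, which encodes the precursor of the NF-kappaB subunit p52. NFKB2 had 2125 bp on chromosome 14 (113405812 to 113407936), covered over 1918 bp in control 1, 2074 bp in control 4, 2044 bp in BRG1 1 and 2125 bp in BRG1 4. SKIL, a repressor of SMAD proteins, was the 1 gene of 30 in the TGF-beta and BMP list, with 2100 bp on chromosome 13 (109028630 to 109030729) and 1701 bp covered in control 1, 1329 bp in control 4, 1161 bp in BRG1 1 and 2100 bp in BRG1 4. SPRY1, a feedback inhibitor of receptor tyrosine kinase signalling, was the 1 gene of 25 in the FGF and MAPK list. Its 2439-bp region on chromosome 8 (100860681 to 100863119) was covered over 1873 bp in control 1, 1683 bp in control 4, 2159 bp in BRG1 1 and 2210 bp in BRG1 4. SPRY1 was the gene of these 3 at which both BRG1 libraries exceeded both controls. Without BRG1 4 the counts were 2 in the inflammatory list, 0 in the TGF-beta and BMP list and 1 in the FGF and MAPK list. Without BRG1 1 the FGF and MAPK count was 0, so the region at SPRY1 reached 2 kb only with that library.

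In the list of mesenchymal transcription factors 2 of 50 genes had a broad region. SOX4, an HMG-box factor of progenitor cells, had 2217 bp on chromosome 7 (16884358 to 16886574), 260 bp outside its model, with 1883 bp covered in control 1, 1637 bp in control 4, 1791 bp in BRG1 1 and 2023 bp in BRG1 4. FOXF1, a forkhead factor of mesenchyme, had 2033 bp on chromosome 6 (2596394 to 2598426), with 1523 bp covered in control 1, 1371 bp in control 4, 1328 bp in BRG1 1 and 1956 bp in BRG1 4. The groups overlapped at both genes. Without BRG1 4, 0 of the 50 genes had a broad region, so both of these rest on that library. Without control 1 the count was 1.

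Several lists had no broad region at any gene. None of 31 ribosomal protein and housekeeping genes had any, although all 31 had a narrower shared region at an end, as did 68.3% of all protein-coding genes (without a broad one). The same held for 28 BAF complex genes (26 with a narrower shared region), 28 cell cycle genes (27), 21 Hippo pathway genes (21), 32 receptor and surface genes of fibroblasts (30) and 20 stress response genes (19). No broad region was seen at 36 HOX, 28 WNT, 25 polycomb and DNA methylation or 19 pluripotency genes, nor at any of the markers of other cell types. At the background of 1.33%, a count of 0 in lists of this size does not set them apart from other genes. These lists differed at a width of 1500 bp or more. The count was then 9 of 20 stress response genes and 9 of 32 receptor and surface genes. It was 7 of 31 ribosomal and housekeeping, 6 of 28 cell cycle and 3 of 28 WNT genes. Hippo, HOX, and polycomb and DNA methylation genes had 1 each, and BAF complex and pluripotency genes had 0. Of all 18722 protein-coding genes, 1873 had a region of that width. In total 18 of the 531 list genes had a broad region.

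**Figure D2:**
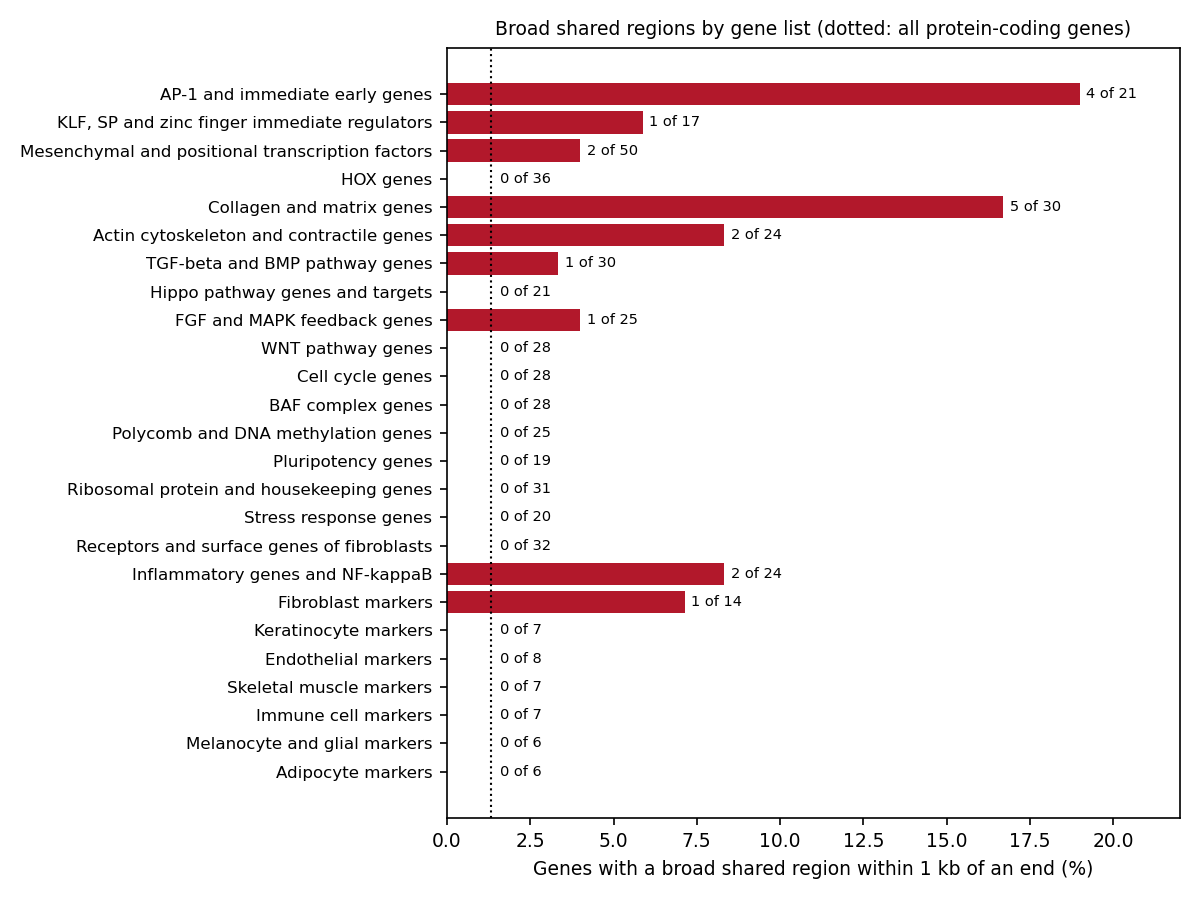
Percent of the matched genes of each of 25 lists that had a broad region within 1 kb of an end of the gene model (x axis), with counts beside the bars. The dotted line is the 1.33% of all protein-coding genes. At this cut of 2 kb the lists of AP-1 and immediate early genes (19.0%) and of collagen and matrix genes (16.7%) have the longest bars. That order did not hold at a width of 1500 bp or more.

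Most broad regions lay at gene ends. The midpoint of 170 of 286 regions (59.4%) was within 1 kb of an end of a protein-coding model, against 16.5% of the narrower shared regions. Without BRG1 4 it was 56.3% of the regions that then qualified. The share was lower, 45.9%, for the 37 regions with 2000 bp covered in every library. Of the 286 regions, 69 (24.1%, against 43.5%) had the midpoint deeper inside a gene, and 47 (16.4%, against 40.0%) had it between genes. The gene table gives no strand, exon or transcript, so starts cannot be told from stops and exonic or intronic position was not assigned. Of the 170 regions, 96 were nearest to the lower-coordinate end and 74 to the higher-coordinate end.

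The share at gene ends was higher in each wider class up to 2 kb and showed no such order above it. It was 4.71% of shared regions of 200 to under 500 bp, 11.0% from there to under 1000 bp, 41.5% from there to under 1500 bp and 56.9% from there to under 2000 bp. Among the broad regions it was 62.6% below 2250 bp, 50.7% from 2250 to under 2500 bp and 61.9% of the 21 regions of 2500 bp or more. The broad regions were thus close to the class just below 2 kb in this respect, and the 16.5% of narrower regions as a whole combines classes that differ among themselves.

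**Figure D3:**
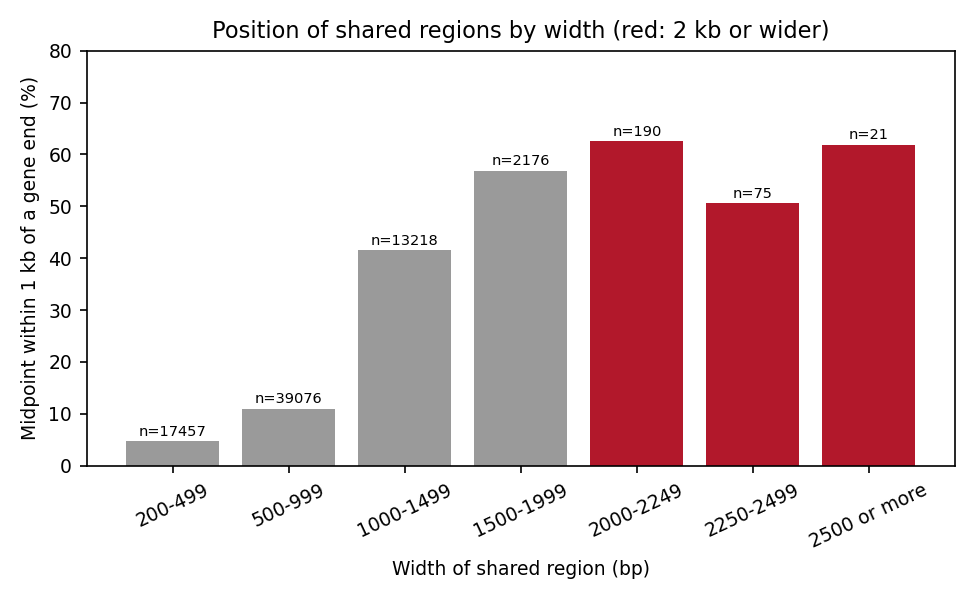
Percent of shared regions whose midpoint lay within 1 kb of a protein-coding gene end (y axis) by width of the region (x axis), with the number of regions above each bar. The share climbs from 4.71% to 56.9% among regions under 2 kb (grey) and is between 50.7% and 62.6% in the classes of 2 kb or wider (red).

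Some broad regions lay where gene models meet. The midpoint was within 1 kb of the ends of at least 2 protein-coding genes in 35 regions (12.2%), against 2.33% of the narrower shared regions. The class just below 2 kb was close to the broad regions as a whole here too, at 10.2% of those from 1500 to under 2000 bp. Within the broad regions the share followed no order of width. It was 13.2% below 2250 bp, 5.33% from there to under 2500 bp and 28.6% (6 of 21) at 2500 bp or more. Counting any base of the region, 203 broad regions came within 1 kb of a gene end: 159 touched 1 gene, 42 touched 2 and 2 touched at least 3. The region at HDAC3, a histone deacetylase, also reached RELL2 and FCHSD1 (2017 bp, chromosome 2, 143286917 to 143288933). A gene end lay inside 182 regions, and 7 regions held 8 whole gene models, IER3 among them. Genes with a broad region were of ordinary length, with a median of 26052 bp against 25461.5 bp for genes with only a narrower shared region at an end.

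Other regulators with a broad region at an end are given as examples, picked with their values in view. STAT6, the factor activated by interleukin 4, had 2458 bp on chromosome 5 (22420382 to 22422839), and its neighbour NAB2, a corepressor of EGR1, had a separate 2269-bp region 19888 bp away. At STAT6 covered length was 2291 bp in control 1, 2029 bp in control 4, 2206 bp in BRG1 1 and 2264 bp in BRG1 4. ELF1, an ETS factor, shared 2467 bp on chromosome 11 (25771310 to 25773776) with WBP4, whose end was nearer to the midpoint. They were almost wholly covered in each library, over 2451 bp in control 1, 2416 bp in control 4, 2386 bp in BRG1 1 and 2438 bp in BRG1 4. HSF1, the master regulator of the heat shock response, shared 2532 bp on chromosome 4 (485562 to 488093) with BOP1, whose end was nearer to the midpoint. There 1674 bp were covered in control 1, 1648 bp in control 4, 1756 bp in BRG1 1 and 2299 bp in BRG1 4. CITED2, a coactivator that binds CBP and p300, had 2478 bp on chromosome 1 (25154404 to 25156881), with 1981 bp covered in control 1, 1820 bp in control 4, 2277 bp in BRG1 1 and 2315 bp in BRG1 4. Of these, HSF1 and CITED2 had both BRG1 libraries above both controls.

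The remaining 83 broad regions had no protein-coding gene end within 1 kb of any base. By midpoint, 51 regions were over 10 kb from the nearest end and 13 were over 100 kb away. The most remote, 2432 bp on chromosome 7 (10910150 to 10912581), lay between genes, 446878 bp from JARID2, a subunit of polycomb complex PRC2. Covered length there was 1838 bp in control 1, 2061 bp in control 4, 2165 bp in BRG1 1 and 2405 bp in BRG1 4. Regions over 100 kb from an end also lay inside the models of FGF12, ADAM12, KCNN2, AKAP13, FOXP1, IGF1R and RBPJ. FOXP1 is a forkhead factor, RBPJ is the DNA-binding protein of Notch signalling and IGF1R is the receptor of insulin-like growth factor 1.

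Most broad regions lay far from the next one, and whether they cluster was not tested. The median distance between neighbouring regions was 4.59 Mb, and 6 neighbouring pairs were under 50 kb apart. SEC14L5 and PPL on chromosome 3 made the closest pair, with 9585 bp between their regions, and SLC38A1 and SLC38A2, neighbouring amino acid transporters on chromosome 5, had regions 48719 bp apart. The median number of other shared regions within 50 kb was 5 for broad and 5 for narrower regions. Per 1000 shared regions the count of broad regions was 3.96 over all 18 chromosomes, highest on chromosome 12 with 8.34 (28 of 3357) and lowest on chromosome 17 with 1.28 (3 of 2348).

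Broad regions ranked higher in each list by p-value than by fold. Each library's peaks were ranked by the deposited −log10 p-value and by the deposited fold, the authors' ratio of pileup to background at the summit, within its own list. By −log10 p the strongest peak of a broad region stood at a median percentile of 87.8 in control 1 and 87.1 in control 4, with 87.3 in BRG1 1 and 85.7 in BRG1 4. By fold the median percentile was lower, at 63.0 in control 1 and 60.5 in control 4, with 58.7 in BRG1 1 and 59.6 in BRG1 4. In control 1, 62 broad regions had a highest fold under the median of all its peaks, as did 67 in control 4, 81 in BRG1 1 and 73 in BRG1 4. RIMS2, a scaffold of synaptic vesicle release, had a region of 2522 bp on chromosome 4 (33612230 to 33614751) with a highest fold of 5.14 in control 1 and 5.33 in control 4, with 5.44 in BRG1 1 and 5.11 in BRG1 4. EMSY, a chromatin protein that binds BRCA2, had 2029 bp on chromosome 9 (10627493 to 10629521) with a highest fold between 13.2 in BRG1 4 and 18 in control 4. Both were picked after their values were seen, to show the range.

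In control 1, control 4 and BRG1 1 most broad regions were composites of several peaks, whereas in BRG1 4 most were a single peak. The mean number of peaks per region was 1.78 in control 1 and 1.79 in control 4, with 1.64 in BRG1 1 and 1.27 in BRG1 4. A library had a single peak in 112 regions in control 1 and 102 in control 4, with 127 in BRG1 1 and 215 in BRG1 4, and in 62 regions this held for all 4 libraries. In 80 regions BRG1 4 had 1 peak where each other library had at least 2. The merged peaks chose the regions, and a long peak of BRG1 4 could bring one to 2 kb, so that choice bears on these counts. The gaps between the peaks had a median length of 201 bp in control 1, 227 bp in control 4, 240 bp in BRG1 1 and 188 bp in BRG1 4.

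Covered length within the broad regions was greater in BRG1 4 than in the other libraries. It ranged from 1015 to 3051 bp in control 1 (median 1838.5 bp), from 517 to 2787 bp in control 4 (median 1768 bp), from 518 to 2748 bp in BRG1 1 (median 1807.5 bp) and from 1346 to 2962 bp in BRG1 4 (median 2056 bp). BRG1 4 was the widest library in 199 of 286 regions. Its peaks set both outer edges in 69 regions, where control 1 did so in 12, control 4 in 14 and BRG1 1 in 4. The merged width chose the regions, so that choice partly fixed the place of BRG1 4 as the widest. At least 2000 bp were covered in 83 regions in control 1 and 67 in control 4, with 74 in BRG1 1 and 185 in BRG1 4. In 37 regions all 4 libraries reached 2000 bp, in 90 BRG1 4 alone did, and in 79 no library did, so that these 79 passed the threshold only through the merging of libraries. Without BRG1 4, 126 of the 286 regions still reached 2 kb, and 112 genes had such a region at an end.

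**Figure D4:**
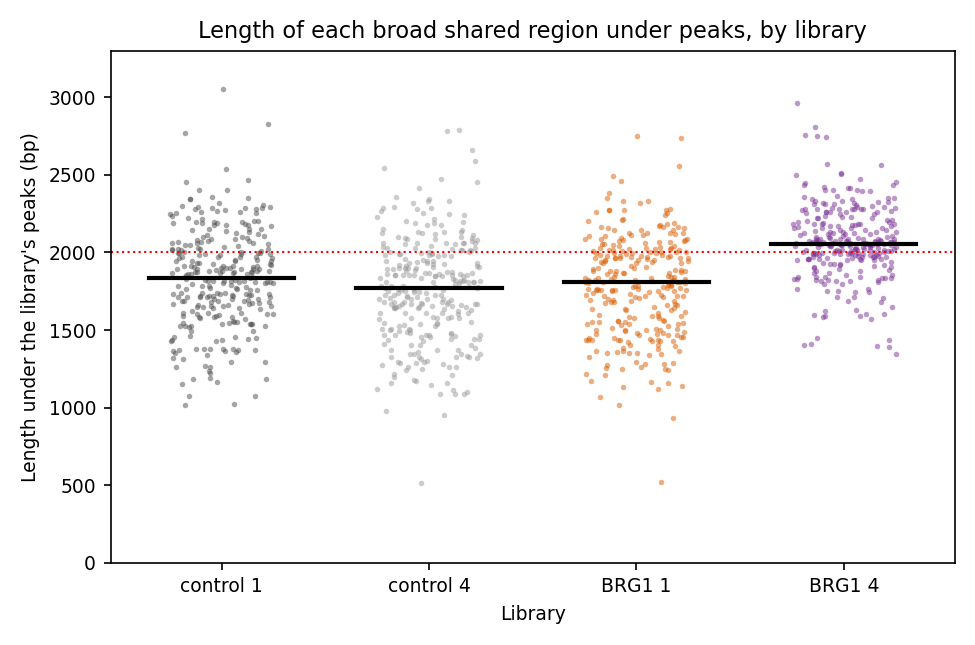
Length of each of the 286 broad regions that lay under the peaks of a library (y axis, bp), by library (x axis). Points are regions, black lines are medians (1838.5, 1768, 1807.5 and 2056 bp from left to right) and the dotted line marks 2000 bp; the points of BRG1 4 sit higher than those of the other libraries.

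The outer edges of the broad regions were compared across libraries, each edge first taken alone. The outer start varied over the 4 libraries by a median of 105.5 bp and the outer end by 102.5 bp. For the edge that varied more in each region, the median was 262.5 bp at gene ends and 202.5 bp elsewhere. In 36 regions both edges agreed within 50 bp. The strongest summits of all libraries fell within 100 bp of each other in 162 regions and lay over 500 bp apart in 77. The ratio of the widest to the narrowest library had a median of 1.27 and reached 3.31, with 35 regions at or below 1.1 and 9 at or above 2. Covered share was also taken at 600 bp before the midpoint, at the midpoint and at 600 bp after it, in that order. It was 88.5%, 85.0% and 88.5% of regions in control 1, and 88.1%, 77.6% and 87.1% in control 4. In BRG1 1 it was 85.7%, 85.7% and 84.6%, and in BRG1 4 it was 98.3%, 95.8% and 95.1%. The lower share at the midpoint was thus clearest in control 4 and not shared by both controls to that extent.

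**Figure D5:**
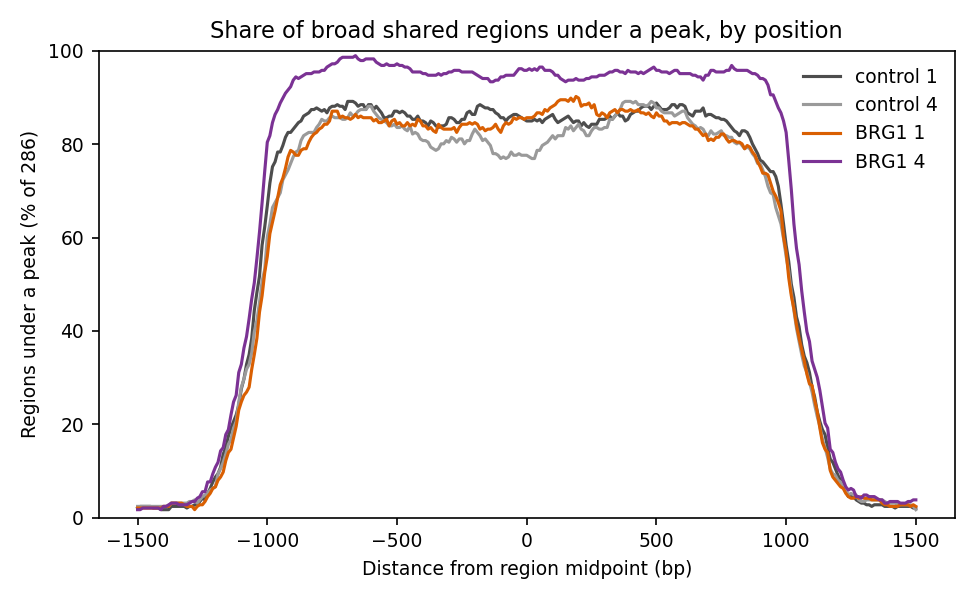
Percent of the 286 broad regions under a peak of each library (y axis) at each distance from the region midpoint (x axis, bp), with regions aligned on their midpoints and not on strand. The line of BRG1 4 runs above 93% between −800 and 800 bp, and those of the other 3 libraries run between 76.9% and 89.9% over the same stretch at the positions sampled every 100 bp.

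BRG1 and control libraries were compared by the share of each broad region that lay under peaks. The mean share was 82.9% in control 1 and 79.4% in control 4, with 80.5% in BRG1 1 and 93.5% in BRG1 4. BRG1 1 lay between the controls, and BRG1 4 lay above the other 3 libraries. The group means were 87.0% ± 9.17 (SD, n = 2) for BRG1 and 81.1% ± 2.47 (SD, n = 2) for control, a difference of 5.85 percentage points, smaller than the SD of the BRG1 libraries. The merged peaks of all libraries chose the regions, so these values are a description and carry no test. BRG1 4 was also the highest library for the narrower shared regions, where the means were 81.6% ± 8.25 in BRG1 and 78.8% ± 1.41 in control (SD, n = 2 each). For peaks per region the means were 1.45 ± 0.262 in BRG1 and 1.79 ± 0.00742 in control (SD, n = 2 each). The groups did not overlap, with BRG1 1 closer to the controls than to BRG1 4. A long peak of BRG1 4 could itself bring a region to 2 kb, so the choice of regions partly fixed its low count. No value for the narrower shared regions stands beside it, and nothing is read from this separation. Taking away BRG1 4 turned the difference in covered share to −1.12 percentage points, over the 126 regions that then qualified.

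Both BRG1 libraries covered more than both controls in 80 broad regions (28.0%), against 18.9% of the narrower shared regions, and less than both in 18 (6.29%), against 14.3%. The merged widths entered the choice of the regions, so nothing is read from these shares beyond the counts. The 5 regions with the highest BRG1 minus control difference lay at CD151, EIF5B, BACH2, HEY2 and MTDH, with differences between 27.9 and 30.5 percentage points. CD151, a tetraspanin that binds integrins, shared its 2291-bp region on chromosome 2 (523479 to 525769) with CRACR2B, and 1372 bp were covered in control 1, 1196 bp in control 4, 1829 bp in BRG1 1 and 2135 bp in BRG1 4. HEY2, a repressor downstream of Notch, had 2275 bp on chromosome 1 (37230794 to 37233068), covered over 1078 bp in control 1, 1295 bp in control 4, 1375 bp in BRG1 1 and 2275 bp in BRG1 4. At CD151 both BRG1 libraries were well above the controls, whereas at HEY2 BRG1 1 was close to control 4 and the difference lay in BRG1 4.

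BACH2, a repressor that competes with AP-1, resembled HEY2. It had 1264 bp covered in control 1, 1162 bp in control 4, 1431 bp in BRG1 1 and 2278 bp in BRG1 4, of 2278 bp on chromosome 1 (58279870 to 58282147). MTDH, a membrane protein of the endoplasmic reticulum, had 1074 bp in control 1, 1090 bp in control 4, 1253 bp in BRG1 1 and 2065 bp in BRG1 4, of 2065 bp on chromosome 4 (39111972 to 39114036). EIF5B, a translation initiation factor, shared its region on chromosome 3 (54930174 to 54932254) with TXNDC9 and had 1192 bp in control 1, 1217 bp in control 4, 1536 bp in BRG1 1 and 2057 bp in BRG1 4. At all 5 of these genes both BRG1 libraries were above both controls, and BRG1 4 was the highest. These regions were picked by that difference. At HEY2, BACH2 and MTDH the peaks of BRG1 4 spanned the whole merged width, so the choice of regions partly fixed its place as the highest.

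The 5 regions with the lowest difference had their nearest gene ends at TEX14, TUBD1, PTGS2, ZNF18 and ADAMTS2, with differences between −30.6 and −14.7 percentage points. Inside the model of TEX14, a protein of germ cell bridges, a 2116-bp region on chromosome 12 (34967334 to 34969449) was covered over 2111 bp in control 1, 2111 bp in control 4, 1478 bp in BRG1 1 and 1451 bp in BRG1 4, as 1 peak in each library. Its percentile by −log10 p was 98.1 in control 1 and 97.9 in control 4, with 97.7 in BRG1 1 and 99.8 in BRG1 4, within lists of different lengths. The region nearest to TUBD1, a tubulin, lay between genes with its midpoint 12103 bp from that gene. Of its 2301 bp on chromosome 12 (36066686 to 36068986), 2235 bp were covered in control 1, 2289 bp in control 4, 1707 bp in BRG1 1 and 1908 bp in BRG1 4. The region whose nearest gene end was that of ZNF18, a zinc finger protein, lay inside the model of DNAH9, 29505 bp from ZNF18. On chromosome 12 (56329213 to 56331335), it had 2100 bp covered in control 1, 1988 bp in control 4, 1476 bp in BRG1 1 and 1837 bp in BRG1 4. In the regions named by TEX14, TUBD1, PTGS2 and ZNF18 the 2 groups did not overlap.

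ADAMTS2, the protease that trims the amino end of fibrillar procollagens, differed from them. Of its 2447 bp on chromosome 2 (79182455 to 79184901), 2301 bp were covered in control 1, 1979 bp in control 4, 2126 bp in BRG1 1 and 1437 bp in BRG1 4. BRG1 1 lay between the controls, and the difference came from BRG1 4, here the narrowest library.

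Regions just inside and just outside the threshold of 2000 bp differed in width by a few bases. Just inside it lay the regions nearest to FAM214A, PGPEP1L and BCL2L11 (2001 bp each), ZBTB1 (2002 bp) and ROPN1L (2003 bp). Just outside it lay those nearest to AZIN1 (1997 bp), BAHCC1 and DDIT4 (1998 bp each), TXN and LOC106504776 (1999 bp each). DDIT4 is an inhibitor of mTORC1 induced by stress, and TXN encodes thioredoxin. At DDIT4 1823 bp were covered in control 1, 1744 bp in control 4, 1784 bp in BRG1 1 and 1998 bp in BRG1 4. At ZBTB1, a transcription factor of lymphocyte development, the lengths were 1952 bp in control 1, 1986 bp in control 4, 1755 bp in BRG1 1 and 1953 bp in BRG1 4. No library reached 2000 bp at either gene.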

How the data were processed

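The authors deposited 1 narrowPeak list per library on the build Sscrofa11.1. MACS2, SAMtools, Bowtie, BWA and FastQC are listed without version or role, per the submitters' processing notes. The fold (a ratio of pileup to background at the summit), the −log10 p-value, the −log10 q-value and the score were computed by the authors within each library. They were used here only to rank or filter peaks within a list. The lowest deposited −log10 q was between 1.31 and 1.35, so weaker edges and gaps depend on that threshold and on depth, which is unknown. The sources used here do not state the Tn5 shift, duplicate handling or caller settings.

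Peaks were merged at an overlap of at least 1 bp with Python 3.11.15, pandas 2.3.3, NumPy 2.4.6, SciPy 1.17.1 and Matplotlib 3.10.9, and the code was tested on simulated peaks. Gene positions came from the RefSeq table of Sscrofa11.1. Of 554 list genes 531 matched it. A two-sided exact permutation test of covered percent over libraries was planned, but its p is not given, because the same peaks chose the regions. Named genes were those at the 12 widest regions, up to 3 per list by width (further list genes, and those introduced as examples, were added after their values were seen), the 5 highest and 5 lowest BRG1 minus control differences, and 5 regions on each side of the width threshold. The regions and lists were chosen with earlier results of these data known. No genome sequence was used here, so none is printed.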

Additional observations from a re-analysis of the deposited data

How the results depend on the processing

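The width threshold and 1 library set how many regions qualified. At 1500 bp or more there were 2462 regions and 1873 genes with such a region at an end. At 3000 bp or more there was 1 region and 1 gene, with 0% of midpoints at a gene end and a BRG1 minus control difference in covered share of −19.5 percentage points. Asking for 2000 bp covered in every library left 37 regions, 33 genes and 45.9% at gene ends. The BRG1 minus control difference over these 37 regions was 0.142 percentage points. Leaving out each library in turn gave 126 to 263 regions, 112 to 234 genes and differences from −1.12 to 12.7, with every lowest value reached without BRG1 4. The share at gene ends was 75.2% with a window of 3 kb (23.6% of narrower shared regions) and 71.0% counting any base within 1 kb (18.1%). A −log10 q of at least 5 gave 281 regions, lists of equal length 283 and merging across gaps of up to 100 bp 305. The replicate block gave the same difference, 5.85, with pair differences of −2.38 and 14.1. Over the regions, libraries with the same number deviated from their group means with a correlation of −0.0695, so the numbers were not taken to pair the libraries. Over the 4 main results 33 alternative values stayed within their limits, 12 moved and 2 changed sign. For the group difference only a change of sign counted, so 0.142 and 12.7 were both within its limits. Counts for the gene lists under these settings were added after seeing the data; 208 were the same and 42 moved, and with 2000 bp covered in every library the collagen and matrix count was 0 of 30. The planned comparison of promoter CpG content and motifs was not run, because no genome or promoter sequence was used here. Unknown depth and the caller's threshold limit the detection of weak edges and of gaps inside a region.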

Other observations

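Among the broad regions of chromosomes 1 to 18, the highest −log10 p in each library was at the same place, 4699952 to 4702207 on chromosome 9, between genes and 4125 bp from LOC100737110. It was called as a single peak of 2247 bp in control 1, 2241 bp in control 4, 2242 bp in BRG1 1 and 2251 bp in BRG1 4. The deposited −log10 p was 5971.2 in control 1 and 5872.4 in control 4, with 5111.1 in BRG1 1 and 4125.5 in BRG1 4, which placed it at rank 4 in control 1 and at rank 3 in each other list. Its fold was 7.27 in control 1 and 7.32 in control 4, with 7.43 in BRG1 1 and 7.30 in BRG1 4, far from the highest folds of the lists.

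Regions of at least 2 kb were also called outside chromosomes 1 to 18. There were 3 on chromosome X (widest 2178 bp), 7 on chromosome Y (widest 3419 bp) and 14 on unplaced or other sequences (widest 3958 bp), and every one held a peak of all 4 libraries. The last group includes 2 regions of the mitochondrial sequence, 3567 and 3560 bp wide. On chromosome X, ELF4, an ETS factor, had a region of 2053 bp with 1455 bp covered in control 1, 1039 bp in control 4, 1117 bp in BRG1 1 and 1481 bp in BRG1 4.

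In 5 of the 286 regions lay 11 tRNA genes, 36 regions overlapped a long non-coding RNA model, and none held a miRNA gene of the table. No share of the narrower shared regions stands beside these counts, so they are a description only.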
